A study of Mus musculus with 6 samples.

Results

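Chromatin accessibility was described at 7 genes that act when spermatogonia of the mouse testis begin to differentiate: Kit, Stra8, Sohlh1, Sohlh2, Dmrt1, Dmrtb1 and Neurog3. They were chosen by their known roles, by a rule that uses no measured value but with earlier results of these data known, and they make up 7 of the 21436 protein-coding genes to which a 5′ end could be given. The assay was ATAC-seq, a method that uses the transposase Tn5 to place sequencing adapters in open chromatin. The samples were 6 libraries of 50000 cells each from testes at postnatal day (Pnd) 5, with 3 from Sirt7-/- mice, labelled S7KO, and 3 from wild-type mice, labelled WT, all on a 129S1/Sv background. SIRT7 is a histone deacetylase that acts, among other residues, on lysine 36 of histone H3, and the contrast asks whether its loss changed which chromatin was open. The S7KO mice lacked SIRT7 in the whole body, so somatic cells of the testis lacked it too. Per the study the cells were enriched by a plating step against somatic cells, after which most were positive for the spermatogonial marker PLZF. The plot of this purity in the study is of WT cells. A library is called by its genotype with the number in its title, and both genotypes had numbers 1, 2 and 4. A second label numbers some libraries otherwise, so these numbers serve as names. The study calls the 3 libraries of a genotype independent biological replicates, and how many animals went into each is not given in the sources used here.

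For each library the authors deposited 1 list of broad peaks, which are stretches of the genome where fragments were enriched over the local background. Every peak that overlapped a gene from 10 kb before its 5′ end to 10 kb past its 3′ end was assigned to that gene, and this stretch is called the gene's window. A peak within 3 kb of the 5′ end was a promoter peak. In these bulk samples, a peak that is weaker because fewer cells of a type were present and one that is weaker because each cell was less accessible cannot be told apart.

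Undifferentiated spermatogonia leave the stem cell pool when retinoic acid reaches them, and the change is marked by the appearance of the receptor tyrosine kinase KIT on their surface. KIT binds KIT ligand, made by Sertoli cells, and serves the survival and division of differentiating spermatogonia. STRA8 is induced directly by retinoic acid and is needed for the entry into meiosis. SOHLH1 and SOHLH2 are helix-loop-helix transcription factors that bind E-box sequences and are needed for Kit expression in differentiating spermatogonia. DMRT1 and DMRTB1, also named DMRT6, carry the DM DNA-binding domain, and they control the switch between mitosis and meiosis. NEUROG3 marks the undifferentiated progenitors that are about to take this step.

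The sequence just before the transcript start is shown for 4 members: for Kit because it is the gene by which differentiation is scored, for Stra8 because it is the target of retinoic acid and held 2 receptor hexamers, for Sohlh1 because it held the most matches to the searched motifs, and for Neurog3 because its window was the one whose covered length separated the genotypes. The 250 bases before the RefSeq transcript start are given 5′ to 3′ on the strand of the gene, from RefSeq on GRCm38.p6. They lie at chr5:75574737-75574986 on the plus strand for Kit, at chr6:34920698-34920947 on the plus strand for Stra8, inside the gene span, at chr2:25847249-25847498 on the minus strand for Sohlh1 and at chr10:62132840-62133089 on the plus strand for Neurog3. Capitals mark the GC box GGGCGG in Kit, the retinoic acid receptor hexamer AGGTCA and the DMRT core ACANTGT in Stra8, the E-box form CACGTG in Sohlh1 and the E-box CANNTG in Neurog3.
Kit: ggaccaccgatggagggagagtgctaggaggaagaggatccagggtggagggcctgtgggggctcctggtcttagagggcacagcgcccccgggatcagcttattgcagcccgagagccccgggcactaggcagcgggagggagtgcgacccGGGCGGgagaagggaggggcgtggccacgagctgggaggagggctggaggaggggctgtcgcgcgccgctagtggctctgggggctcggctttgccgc
Stra8: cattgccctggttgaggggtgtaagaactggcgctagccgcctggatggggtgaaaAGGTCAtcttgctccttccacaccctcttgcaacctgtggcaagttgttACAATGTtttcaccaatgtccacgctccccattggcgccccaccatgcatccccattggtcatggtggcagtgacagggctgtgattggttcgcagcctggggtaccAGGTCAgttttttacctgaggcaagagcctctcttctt
Sohlh1: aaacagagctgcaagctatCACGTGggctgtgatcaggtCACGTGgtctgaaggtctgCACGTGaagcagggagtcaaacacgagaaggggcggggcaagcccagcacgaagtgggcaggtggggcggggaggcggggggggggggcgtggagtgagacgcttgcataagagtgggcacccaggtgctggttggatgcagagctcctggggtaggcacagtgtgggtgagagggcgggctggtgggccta
Neurog3: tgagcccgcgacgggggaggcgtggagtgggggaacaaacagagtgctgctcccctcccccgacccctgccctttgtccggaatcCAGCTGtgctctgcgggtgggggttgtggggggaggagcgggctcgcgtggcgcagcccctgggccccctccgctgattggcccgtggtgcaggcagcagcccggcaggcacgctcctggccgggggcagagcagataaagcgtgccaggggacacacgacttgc

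Both strands of these 250 bases were searched for the 4 motifs in the promoters of the 6 members that the RefSeq promoter table held. An E-box was present in 66.2% of all 32851 promoters of this length, a GC box in 32.7%, an AGGTCA hexamer in 14.02% and a DMRT core in 6.47%. The Kit promoter held 1 GC box, 93 to 98 bases before the start, and no match to the other motifs. The Stra8 promoter held 2 AGGTCA hexamers, 189 to 194 and 33 to 38 bases before the start, and 1 DMRT core between them, 139 to 145 bases before the start. The Sohlh1 promoter held 5 E-boxes, 3 GC boxes, 1 AGGTCA hexamer and 1 DMRT core. Of its E-boxes, 3 had the form CACGTG, at 226 to 231, 206 to 211 and 187 to 192 bases before the start, and 6.02% of all promoters held that form at least once. Its hexamer, 210 to 215 bases before the start, shares bases with the middle CACGTG. The Sohlh2 promoter held 1 E-box and 1 GC box. Dmrtb1 has 2 listed starts, of which the one at position 107683589 had 3 E-boxes and 1 GC box before it and the one at 107684230 had 2 E-boxes. Last, the Neurog3 promoter held 1 E-box, 160 to 165 bases before the start. A match is a run of letters and not a measured binding site. The promoters were mostly rich in G and C, at 70.8% for Kit, 71.2% for Neurog3, 64.8% for Sohlh2 and 64.4% for Sohlh1, against a median of 52.4% over all promoters. Stra8 lay nearer to that median, at 54.8%. The sequences before the Dmrtb1 starts lay on both sides of it, at 75.6% for the start at 107683589 and 42.4% for that at 107684230.

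The 6 lists held between 105728 and 133663 peaks on chromosomes 1 to 19, X and Y. A relative depth, the background coverage solved from the deposited fold enrichments and p-values, was 4.72, 5.15 and 6.03 for S7KO replicates 1, 2 and 4, with 4.74, 2.92 and 6.001 for the same numbers of WT. WT replicate 2 was thus the shallowest library and had the fewest peaks, and its values are pointed out below. The promoter of Sirt7 itself had a peak in every library, at ranks of 7.75% to 17.8% in S7KO and 5.62% to 12.5% in WT, and so gave no check of the genotype labels. Promoter peaks of germ cell markers were present in all 6 libraries for 6 of 6 genes. Markers of Sertoli cells had them for 6 of 7 genes, those of Leydig cells for 4 of 5, those of peritubular myoid cells for 4 of 4 and those of macrophages for 2 of 3. The promoter of Rhox5 (Sertoli) and that of Adgre1 (macrophage) had no peak in any library, and that of Hsd3b1 (Leydig) had 1 in a single WT library. Markers of haploid spermatids had promoter peaks for 2 of 5 genes, and Prm1, Prm2 and Acrv1 had none. Of all protein-coding genes, 74% had a promoter peak in all 6 libraries, which is the background for these counts. An open promoter does not show expression, so the counts do not show which cells were present. The part of other testis cells in the values below was not tested. As background, Dmrt1 is also expressed in Sertoli cells and Kit in some interstitial cells.

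All 7 members had a promoter peak in all 6 libraries, against 74% of all protein-coding genes. The strength of a promoter peak was given as its rank by −log10 q within its own list, in percent, so that 0 is the strongest peak of a library and 100 the weakest. The member with the strongest peak was Dmrt1, at a median rank of 8.95% over the 6 libraries. Sohlh2 at 16.7% and Kit at 17.04% came next and differed by less than their spread over libraries, and no library of Dmrt1 overlapped with them. Dmrtb1 lay at 24.2%, Sohlh1 at 35.4% and Stra8 at 37.9%, with overlapping ranges of Sohlh1 and Stra8 that lay above the range of Dmrtb1. Neurog3 had the weakest peak, at 61.6%, and its range overlapped with those of Stra8 and Sohlh1. The 15863 protein-coding genes with a promoter peak in all libraries had a median rank of 8.05%, with quartiles of 3.21% and 21.1%. By median rank, the promoter peaks of all 7 members were therefore weaker than that of the median gene. Dmrt1 lay close to it, weaker than 53.1% of those genes, with libraries from 8.05% to 11.0%. Kit ranked weaker than 69.6% of those genes, Stra8 weaker than 88.5% and Neurog3 weaker than 96.7%.

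**Figure D1:**
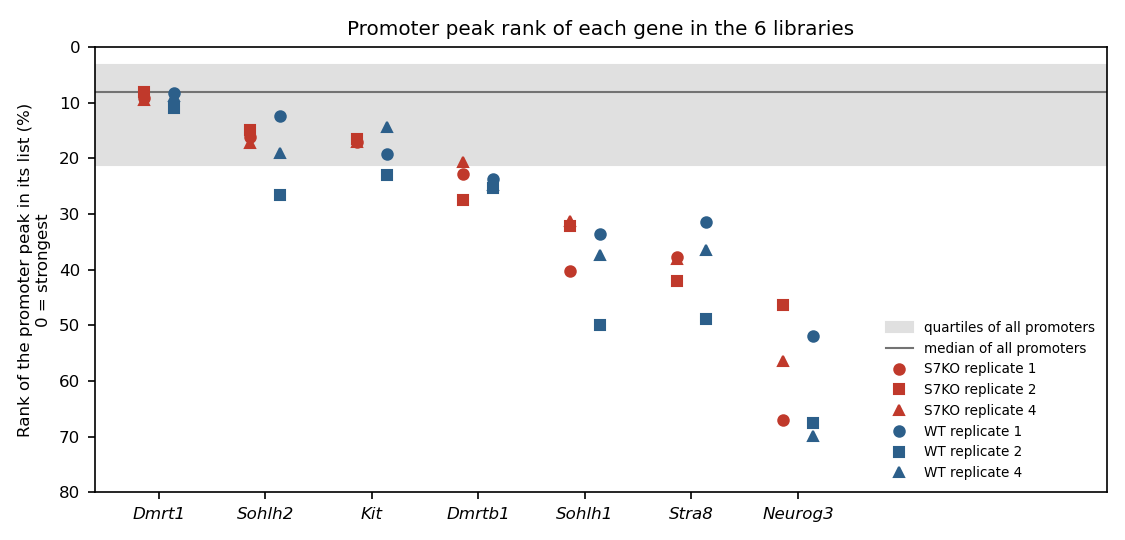
Rank of the promoter peak within its own library, in percent with 0 as the strongest, for the 7 genes in order of their median; each point is 1 library, red for S7KO and blue for WT, with circles, squares and triangles for replicates 1, 2 and 4, and the grey band and line give the quartiles and the median (8.05%) of 15863 promoters. Dmrt1 lies near the median of all promoters, Neurog3 lies farthest from it at 46.4% to 69.8%, and red and blue points overlap for every gene.

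Between the genotypes, no member had promoter ranks that did not overlap. Among all 15863 genes, 5.22% ranked stronger in every S7KO library than in every WT library and 1.24% ranked weaker. Per gene, exact two-sided permutation tests over the 20 assignments of 3 and 3 libraries, which cannot go below p = 0.1, gave p between 0.5 and 1 for the members. With Benjamini-Hochberg adjustment over all genes, each adjusted p was 1. A difference between the genotypes was thus not detectable at these promoters with 3 libraries each, which does not show that the genotypes were alike.

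Kit, the receptor, has its gene at chr5:75574987-75656722 on the plus strand of mm10. Its promoter peak ran from −0.663 kb to 1.47 kb around the 5′ end and had ranks of 17.0%, 16.5% and 17.1% for S7KO replicates 1, 2 and 4 and of 19.2%, 22.9% and 14.4% for WT replicates 1, 2 and 4 (this order of libraries is kept throughout). The S7KO libraries lay close together, while the WT libraries lay on both sides of them, with the shallow WT replicate 2 as the weakest. The means were 16.9% ± 0.334 for S7KO and 18.8% ± 4.29 for WT (SD, n = 3, exact permutation p = 0.6). The fold enrichment of this peak, the authors' ratio of fragments over local background, amounted to 4.07 ± 0.165 for S7KO against 4.03 ± 0.132 for WT (SD, n = 3).

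Kit had 10 accessible regions in its window of 101.736 kb when overlapping peaks of the libraries were merged, and 6 of them were found in all 6 libraries. These were a region at −6.59 to −5.14 kb from the 5′ end, the promoter, and 4 regions in the first part of the gene body, between 14.5 and 27.3 kb. The gene body region with the strongest peaks lay 26.4 to 27.3 kb after the 5′ end and ranked at 18.5%, 27.8% and 24.3% in S7KO and at 23.1%, 32.9% and 25.8% in WT. The upstream region was much weaker, with ranks between 63.3% and 95.5%. In the last part of the gene, a region at 57.4 to 57.9 kb was found in 5 libraries and missing in WT replicate 2. Another at 54.6 to 54.9 kb was found in WT replicates 1 and 4, at weak ranks of 80.8% and 58.5%, and in no S7KO library. The share of all regions with this pattern is not given here. The region at 14.5 to 15.2 kb had a covered length of 656, 685 and 733 bp in S7KO and of 592, 629 and 632 bp in WT, so that every S7KO library exceeded every WT library.

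Peaks covered 6457, 6156 and 5984 bp of the Kit window in S7KO replicates 1, 2 and 4, and 6338, 5410 and 6316 bp in WT replicates 1, 2 and 4. The ranges overlapped, and the lowest value belonged to WT replicate 2. The means were 6199 ± 239 bp and 6021 ± 530 bp (SD, n = 3, exact permutation p = 0.8). The 3 protein-coding genes whose promoter ranks were most like those of Kit over the 6 libraries were Agtr1b, Tnfaip8l3 and Bcl3, at mean absolute differences of 0.808, 0.905 and 0.939 percentage points.

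Stra8, the target of retinoic acid, lies at chr6:34920163-34939344 on the plus strand. Its promoter peak ran from −0.893 kb to 1.16 kb and so spanned the printed promoter sequence with both hexamers. It ranked at 37.7%, 42.0% and 38.2% in S7KO and at 31.4%, 48.8% and 36.4% in WT. WT libraries held both the strongest and the weakest value, the latter again in WT replicate 2 (39.3% ± 2.33 against 38.9% ± 8.94, SD, n = 3, exact permutation p = 1). Its fold enrichment was 3.28 ± 0.0873 in S7KO, with a range of 3.18 to 3.35, and 3.55 ± 0.130 in WT, with a range of 3.46 to 3.70 (SD, n = 3). These ranges did not overlap. Fold enrichment was given here as a description only, without the share of all promoters whose ranges did not overlap, and a part of library depth in it was not tested. When all peaks of each list were ranked by fold enrichment instead of by −log10 q, the Stra8 ranks of the genotypes overlapped.

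The Stra8 window held 6 regions, of which 5 were found in all 6 libraries. The strongest, at −10.03 to −8.903 kb from the 5′ end, ranked between 1.11% and 3.49% and holds the start of the neighbouring gene Wdr91. The region at 28.0 to 29.1 kb lies past the 3′ end and overlaps Slc23a4, a member of a nucleobase and ascorbate transporter family. It ranked at 18.3%, 21.04% and 29.05% in S7KO and at 32.0%, 33.4% and 35.0% in WT, and was the only one of the 32 regions found in all 6 libraries at which every S7KO library ranked stronger than every WT library. Over all 90689 such regions, 5.98% ranked stronger in every S7KO library and 1.35% weaker. With 1 of 32 stronger and 0 weaker, the members' regions lay near that background.

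Peaks covered 6320, 6156 and 5762 bp of the Stra8 window in S7KO and 6479, 4843 and 6029 bp in WT. WT replicate 2 lay below every other library, in part because it lacked the weak region at 24.03 to 24.8 kb, which the other 5 libraries had. The means were 6079 ± 287 bp and 5784 ± 845 bp (SD, n = 3, exact permutation p = 0.8).

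Of the helix-loop-helix factors, Sohlh1 lies at chr2:25842995-25847248 on the minus strand and Sohlh2 at chr3:55182044-55209957 on the plus strand. The Sohlh2 promoter was the more strongly enriched, with ranks of 16.1%, 15.0% and 17.2% in S7KO and of 12.4%, 26.5% and 19.1% in WT (exact permutation p = 0.6). The Sohlh1 promoter, which holds the CACGTG forms shown above, ranked at 40.2%, 32.1% and 31.2% in S7KO and at 33.5%, 49.9% and 37.3% in WT (exact permutation p = 0.5). At both genes the weakest value belonged to WT replicate 2, and the ranges of the genotypes overlapped. Fold enrichment was 4.53 ± 0.0773 for S7KO against 4.42 ± 0.295 for WT at Sohlh2, and 3.67 ± 0.162 and 3.53 ± 0.196 at Sohlh1 (SD, n = 3).

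The small Sohlh1 gene had 5 regions in its window, 4 of them in all 6 libraries. Besides the promoter these lay at −3.61 to −3.13 kb and at 4.59 to 5.22 kb and 10.4 to 11.1 kb from the 5′ end. The remaining region, at −5.784 to −5.348 kb, was found in all 3 S7KO libraries and in WT replicate 4 but not in WT replicates 1 and 2. Sohlh2 had a window of 47.914 kb with only 4 regions, and its promoter was the only one found in all 6 libraries. A gene body region at 8.001 to 8.49 kb was found in 5 libraries and missing in S7KO replicate 1. Another at 13.8 to 14.2 kb was found in 3 libraries, S7KO replicate 4 and WT replicates 2 and 4, so neither genotype held it throughout.

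Covered length in the Sohlh1 window was 3110, 2964 and 2868 bp in S7KO and 2642, 2185 and 3254 bp in WT (2981 ± 122 and 2694 ± 536 bp, SD, n = 3, exact permutation p = 0.5). The S7KO libraries were close together, and WT replicate 4 lay above and the other WT libraries below them. In the Sohlh2 window it was 2020, 2381 and 2749 bp in S7KO and 2512, 2388 and 3006 bp in WT (2383 ± 365 and 2635 ± 327 bp, SD, n = 3, exact permutation p = 0.4). Here S7KO replicate 1, which had the promoter peak alone, was the lowest.

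**Figure D2:**
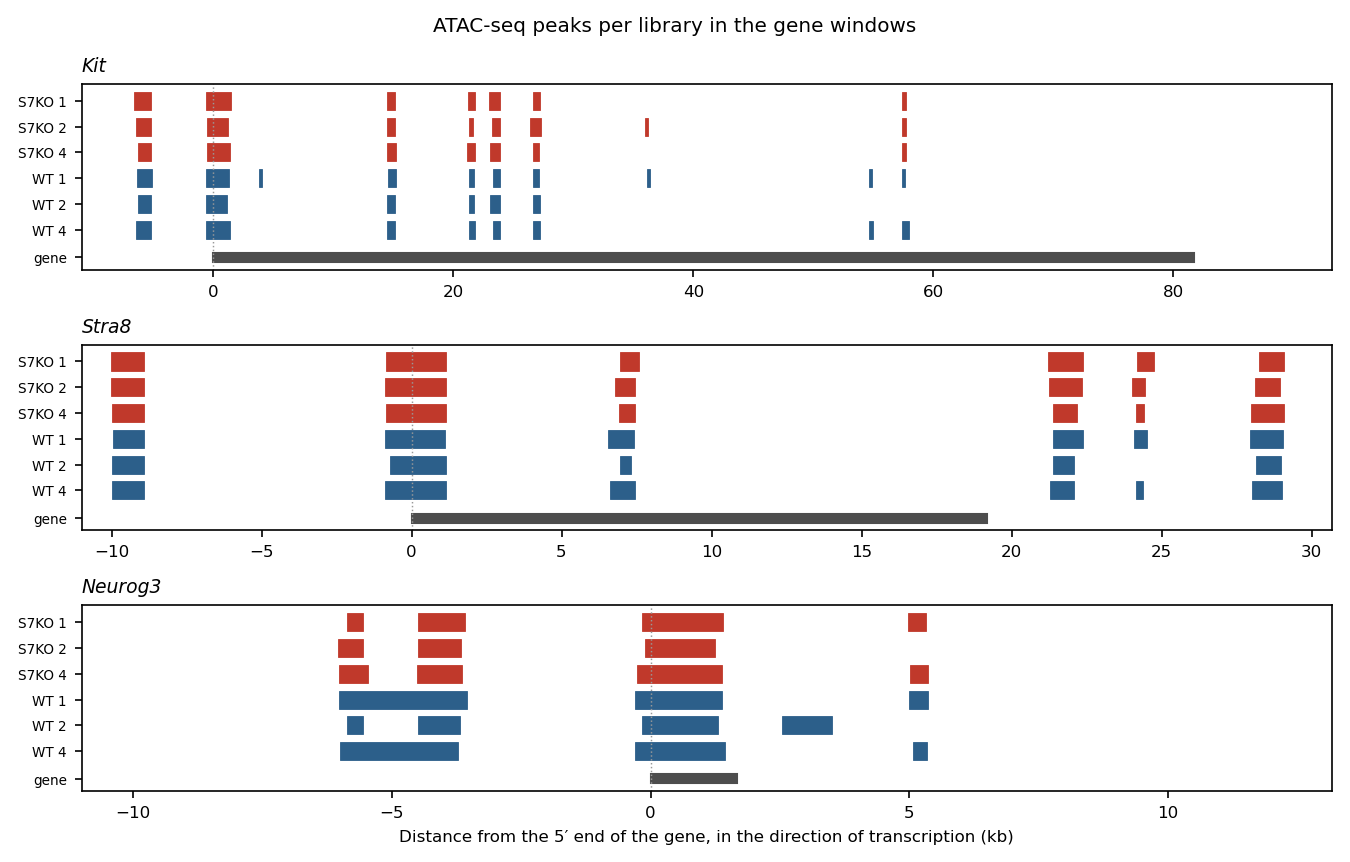
Peaks of each library in the windows of Kit, Stra8 and Neurog3, drawn to scale against the distance in kb from the 5′ end in the direction of transcription, with red boxes for S7KO, blue boxes for WT and a dark bar for the gene. Kit and Stra8 show the same set of main peaks in all 6 libraries, and at Neurog3 the upstream pair of peaks was called as 1 long peak in WT replicates 1 and 4 alone.

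Of the DM domain factors, Dmrt1 lies at chr19:25505618-25604328 on the plus strand. Its promoter peak was the strongest of the members and ranked at 9.12%, 8.05% and 9.43% in S7KO and at 8.20%, 11.0% and 8.78% in WT (8.87% ± 0.728 and 9.33% ± 1.48, SD, n = 3, exact permutation p = 0.8). The libraries lay close together, with WT replicate 2 as the weakest. Its window of 118.711 kb was the longest and held 19 regions, of which 9 were found in all 6 libraries and 5 in a single library. A region at 99.3 to 100.9 kb, just past the 3′ end, had a median rank of 8.87% and was as strong as the promoter. The region at 104.3 to 106.8 kb holds the start of Dmrt3, another DM domain gene.

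The Dmrt1 region at 21.9 to 24.4 kb, in the gene body, was covered over 948, 1533 and 1613 bp in S7KO and over 618, 568 and 743 bp in WT. All WT libraries had a single peak in its last part. S7KO replicates 1 and 4 had a further peak before it that was weak, at ranks of 95.7% and 99.3%. S7KO replicate 2 had 1 longer peak. By the strongest peak of each library, the ranks of the region overlapped between the genotypes. They were 60.4%, 60.8% and 40.7% in S7KO and 61.8%, 44.5% and 45.1% in WT. Over the whole window, peaks covered 11425, 14263 and 14617 bp in S7KO and 14131, 11307 and 13358 bp in WT (13435 ± 1750 and 12932 ± 1459 bp, SD, n = 3, exact permutation p = 0.5). The lowest libraries of the genotypes, S7KO replicate 1 and WT replicate 2, lay close to each other and below the rest.

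Dmrtb1 lies at chr4:107676288-107704011 on the minus strand, and its case differs from the others. The transcript starts of the RefSeq promoter table, at positions 107684230 and 107683589, lie well inside the gene span, in the region at 19.7 to 21.3 kb. At the end of the span, the peak counted as the promoter lay at 1.82 to 3.24 kb, where the span overlaps the gene 1700047F07Rik, and ranked at 22.8%, 27.6% and 20.7% in S7KO and 23.7%, 25.3% and 24.7% in WT (exact permutation p = 0.7). The peak in the region of the transcript starts ranked at 48.5%, 48.6% and 45.0% in S7KO and at 44.1%, 50.4% and 56.3% in WT, so that by this placing Dmrtb1 would stand after Stra8 in the order of strength. All 6 libraries had peaks at both places, and the genotypes overlapped at both.

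The strongest Dmrtb1 region lay past the 3′ end, at 29.3 to 30.4 kb, with a median rank of 12.6%. A region at 34.2 to 35.5 kb was covered over 1110, 1071 and 1133 bp in S7KO and over 1305, 1198 and 1297 bp in WT, so that each S7KO library had a narrower peak than any WT library. Its ranks overlapped between the genotypes, at 23.2%, 20.3% and 29.6% in S7KO and 27.0%, 30.3% and 33.4% in WT. Peaks covered 6211, 5932 and 6370 bp of the Dmrtb1 window in S7KO and 5789, 5815 and 7098 bp in WT (6171 ± 222 and 6234 ± 748 bp, SD, n = 3, exact permutation p = 1). WT replicate 4 lay above and the other WT libraries below all S7KO libraries.

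**Figure D3:**
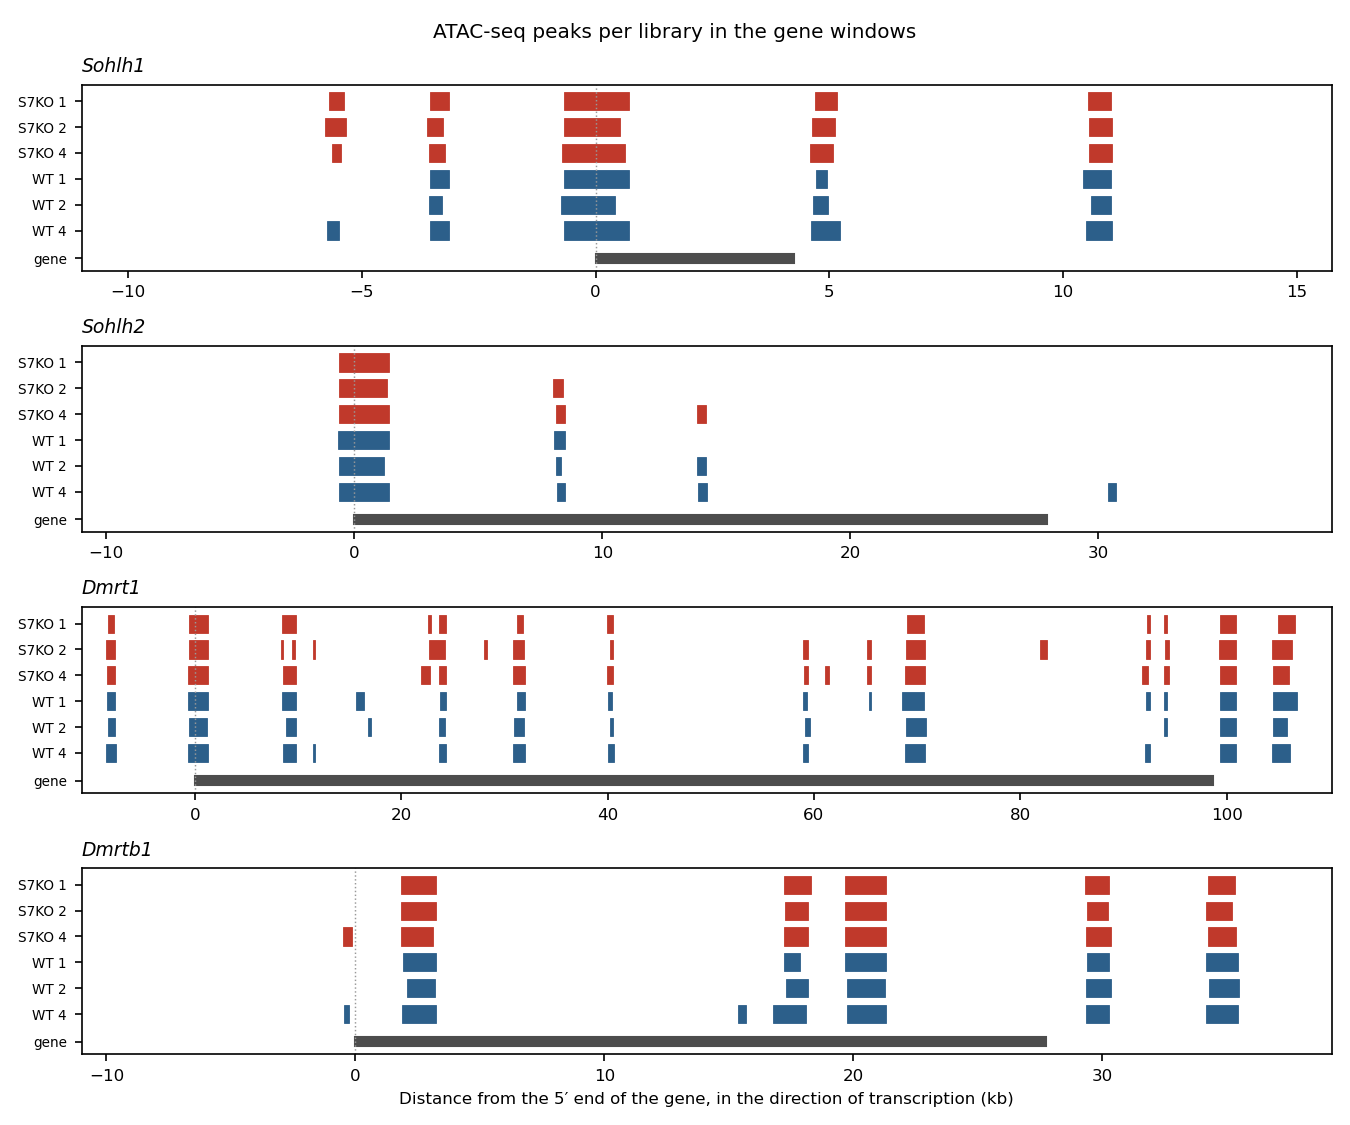
Peaks of each library in the windows of Sohlh1, Sohlh2, Dmrt1 and Dmrtb1, drawn to scale against the distance in kb from the 5′ end in the direction of transcription, with red boxes for S7KO, blue boxes for WT and a dark bar for the gene span. Sohlh2 has its promoter as the only peak in all 6 libraries, and the Dmrtb1 span begins well before the peaks at 19.7 to 21.3 kb that hold its listed transcript starts.

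Neurog3, the progenitor factor, lies at chr10:62133090-62134763 on the plus strand and had the weakest promoter peak of the members. It ranked at 66.9%, 46.4% and 56.4% in S7KO and at 51.9%, 67.6% and 69.8% in WT (56.6% ± 10.2 and 63.1% ± 9.75, SD, n = 3, exact permutation p = 0.5). The spread over libraries was wide in both genotypes, and the ranges overlapped. Fold enrichment amounted to 2.45 ± 0.175 for S7KO against 2.42 ± 0.197 for WT (SD, n = 3). The peak began −163, −109 and −257 bp from the 5′ end in S7KO and −296, −165 and −296 bp from it in WT. The E-box of the printed sequence, 160 to 165 bases before the start, thus lay wholly inside the peak in 4 libraries, was cut by its edge in S7KO replicate 1 and lay outside it in S7KO replicate 2.

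Covered length in the Neurog3 window was 3126, 2672 and 3427 bp in S7KO and 4529, 3527 and 4286 bp in WT. Every WT library exceeded every S7KO library, and this was the only member where the genotypes did not overlap. Over all 21436 protein-coding genes, 0.508% had more covered length in every WT library and 6.35% had more in every S7KO library. The S7KO mean of 3075 ± 380 bp stood against a WT mean of 4114 ± 523 bp (SD, n = 3), a difference of −1039 bp with the smallest p that the exact permutation test can give, 0.1, and an adjusted p of 1. With a window of 50 kb on each side the difference was −367 bp, with only peaks of −log10 q of at least 3 it was −1028 bp, and in both cases the genotypes overlapped.

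The excess in WT came from different peaks in different libraries. The region at −6.04 to −3.55 kb was the strongest of the window and was covered over 1208, 1311 and 1456 bp in S7KO and over 2482, 1098 and 2274 bp in WT replicates 1, 2 and 4. WT replicates 1 and 4 had 1 long peak there, and the other 4 libraries had a pair of peaks with a gap, so WT replicate 2 had the shortest cover of all. That region ranked at 7.91%, 10.7% and 8.97% in S7KO and at 21.8%, 10.4% and 14.9% in WT, so the long peaks were the lower ranked ones. WT replicate 2 instead had a weak peak of 968 bp at 2.55 to 3.51 kb that no other library had, with a rank of 93.2%. A region at 4.98 to 5.36 kb was found in 4 libraries, S7KO replicates 1 and 4 and WT replicates 1 and 4.

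**Figure D4:**
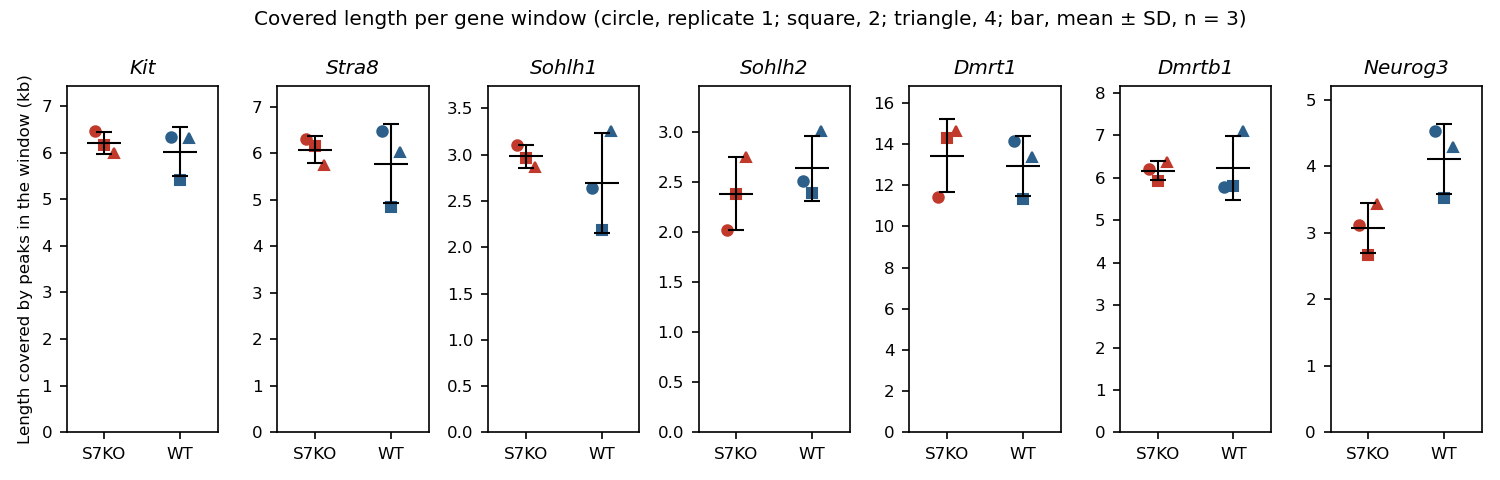
Length of each gene's window covered by peaks, in kb, for the 7 genes in panels with their own axes from 0; each point is 1 library (circle, square and triangle for replicates 1, 2 and 4) and bars give the mean ± SD of 3 libraries of a genotype. The genotypes overlap in every panel except Neurog3, where the S7KO libraries reach at most 3427 bp and the WT libraries begin at 3527 bp.

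For the 7 windows together, 55 regions were found, of which 32 (58.2%) occurred in all 6 libraries, against 57.1% of all 158725 regions of the genome. Another 6 occurred in 5 libraries, 8 in 2 to 4 and 9 in a single library. No region occurred in all 3 libraries of one genotype and none of the other. In the whole genome, 0.416% of the regions were found in 3 of 3 S7KO and 0 of 3 WT libraries and 0.0743% in 3 of 3 WT and 0 of 3 S7KO libraries, so the count of 0 lay near the background. Of the 32 regions in all 6 libraries, 2 were wider in every S7KO library (Kit at 14.5 to 15.2 kb and Dmrt1 at 21.9 to 24.4 kb) and 1 was narrower (Dmrtb1 at 34.2 to 35.5 kb), against 6.86% and 1.56% of all such regions. These counts lay near the background too. WT replicate 2 had the shortest covered length at 4 members and the weakest promoter rank at 5.

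The members' windows differed in how densely they were covered. Peaks took up a median over libraries of 16.04% of the Neurog3 window, 15.5% for Stra8, 12.7% for Dmrtb1, 12.0% for Sohlh1, 11.6% for Dmrt1, 6.13% for Kit and 5.11% for Sohlh2. The median was 6.96% over the 15863 protein-coding genes with a promoter peak in all 6 libraries. Kit and Sohlh2, whose promoters ranked among the stronger ones of the members, thus had the most sparsely covered windows. The windows also differed in length, from 21.674 kb at Neurog3 to 118.711 kb at Dmrt1. Those of Stra8 and Dmrt1 held the starts of Wdr91 and Dmrt3. The part of window length and of neighbouring genes in this order was not tested.

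Of 16 other genes of differentiation and of its retinoic acid and KIT signals, 16 had a promoter peak in all 6 libraries. The share of all protein-coding genes with such a peak was 74%. The median rank of the 16 was 27.6%, against 24.2% for the members. Kitl, which encodes KIT ligand, ranked strongest at 3.84%, followed by Meiosin, the partner of STRA8, at 8.35%. The retinoic acid receptor genes Rara and Rarg ranked at 50.03% and 36.3% and their partner gene Rxra at 17.9%. The weakest was Lin28a, an RNA-binding repressor of let-7 microRNAs, at 50.6%. It was also the only gene of the list whose ranks did not overlap, at 44.6% to 49.8% in S7KO and 51.4% to 56.2% in WT, and none of the 16 had covered lengths that did not overlap. As 5.22% of all promoters ranked stronger in every S7KO library, 1 of 16 lay near that background.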

How the data were processed

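The authors trimmed the reads with Trim Galore 0.6.6, aligned them to mm10 with Bowtie2 2.4.4.1, removed duplicates and mitochondrial reads, shifted ends for the Tn5 cut, filtered by fragment size and called broad peaks with MACS2 2.2.5, 1 list per library. Each deposited list gave per peak a display score, a fold enrichment (a ratio to the background nearby), and −log10 p-values and q-values. The scores were not used. Which fragments entered the calls is described in more than 1 way by the study and was not settled here. Read counts were not used here, so the authors' differential test was not repeated.

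Gene positions and promoter sequences came from RefSeq tables of GRCm38.p6, the build of the peaks. The strand came from the RefSeq promoter table for 17491 genes and from GENCODE otherwise. Dmrt1 had no entry in the promoter table. GRCm39 coordinates were not used, and exons and introns were not separated. Covered length and rank by −log10 q were computed for every gene with Python 3.11.15, numpy 2.4.6, pandas 2.3.3 and scipy 1.17.1, after being tested on simulated data. Overlap meant at least 1 bp. Both were tested by exact permutation (two-sided) with Benjamini-Hochberg adjustment over all genes. Background coverage was solved from peaks under 300 bp, which limits its precision. The 7 genes and the gene lists were chosen with earlier results of these data known. The text names all members, and of other lists those without promoter peaks in some library and the 2 strongest. Rara, Rarg, Rxra and Lin28a, the CACGTG form, and the comparisons of single regions by rank and width were chosen after their values were seen.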

Additional observations from a re-analysis of the deposited data

How the results depend on the processing

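The alternatives were a window of 5 or 50 kb, peaks with −log10 q of at least 3, the same number of peaks from each list, ranking by fold enrichment, a promoter of 1 kb, a replicate block and leaving out each library, and, chosen after seeing the data, RefSeq transcript starts and replicates 1 and 4 only. Of 84 covered-length differences (S7KO minus WT), 70 kept their direction and 14 reversed, and of 90 rank differences 75 kept it and 15 reversed. Some of those kept were repeats of the main value. The replicate block always returns the main difference. A promoter of 1 kb and RefSeq transcript starts gave the main rank difference at every member except Dmrtb1. None had p below 0.1, which none of these settings could give. Neurog3 covered length kept its direction in 12 of 12, from −367 bp (50 kb) to −1449 bp (equal peak number). As its genotypes did not overlap, leaving out libraries or using the replicate block could not reverse it. Only the settings of window, −log10 q and equal peak number could have. Deviations of the libraries with number 1, 2 and 4 correlated at 0.106, −0.00239 and 0.142. These low values do not settle whether libraries of the same number were prepared together. Background coverage was close between S7KO and WT for number 1 (4.72 and 4.74) and for number 4 (6.03 and 6.001), but not for number 2 (5.15 and 2.92). With the replicate block, Neurog3 had the same −1039 bp, at an exact sign-flip p of 0.25, the smallest possible, so this setting could change no call.

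Covered length reversed to 99 bp at Dmrtb1 with 5 kb. With −log10 q of at least 3 it was 350 bp at Dmrtb1 and −382.3 bp at Dmrt1, and with equal peak numbers 44 and −192.3 bp. With replicates 1 and 4 only it was −106.5 bp at Kit, −213 bp at Stra8 and −723.5 bp at Dmrt1. Leaving out 1 library gave −128 to 336 bp at Kit, −174.7 to 643.3 bp at Stra8, 32.67 to 567.2 bp at Sohlh1 (lowest without WT replicate 2, highest without WT replicate 4), −434.8 to −66.67 bp at Sohlh2, −309.5 to 1508 bp at Dmrt1 and −285.5 to 369 bp at Dmrtb1. The Kit and Stra8 reversals came without WT replicate 2.

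Rank differences, in percentage points, reversed to −0.145 at Stra8 (−log10 q of at least 3), to 0.214 at Dmrt1 and 0.7065 at Dmrtb1 (equal peak numbers), and with replicates 1 and 4 only to 0.27 at Kit, 0.2985 at Sohlh1, 0.905 at Sohlh2, 0.787 at Dmrt1 and 0.787 at Neurog3. Leaving out 1 library gave −4.205 to 0.0787 at Kit, −3.315 to 5.366 at Stra8, −9.11 to −0.902 at Sohlh1, −6.709 to 0.342 at Sohlh2, −1.025 to 0.376 at Dmrt1, −2.81 to 0.611 at Dmrtb1 and −12.11 to −1.446 at Neurog3.

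The number of members with covered lengths that did not overlap was 1, became 0 with 50 kb and 0 with −log10 q of at least 3, and was 1 to 3 when 1 library was left out. That of promoter ranks was 0, became 1 by fold enrichment (Dmrt1) and 3 with replicates 1 and 4 only (Stra8, Dmrt1 and Dmrtb1), and was 0 to 2 when 1 library was left out. That of regions found in all libraries of only 1 genotype was 0, became 1 with equal peak numbers (Sohlh1, at −5.784 to −5.348 kb, S7KO), and was 0 to 1 when 1 library was left out. All 7 members kept a promoter peak in all 6 libraries, except with a promoter of 1 kb, where 6 did (not Dmrtb1). The share over all genes was not computed for these settings, so these counts have no background beside them. With fewer libraries per genotype, ranges fail to overlap more readily. The cause of these changes was not tested. The lists hold no fragment counts, and depth was known only as the background coverage.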

Other observations

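Of 13 genes of undifferentiated spermatogonia, all had a promoter peak in all 6 libraries, at a median rank of 15.96%. The share of all protein-coding genes with such a peak was 74%. Etv5, a target of GDNF signalling, ranked strongest at 1.495%, followed by Taf4b, a subunit of a general transcription factor, at 1.96%. The only gene of this list whose ranks did not overlap was Nanos2, an RNA-binding protein of the stem cell state, at 4.98% to 9.004% in S7KO and 9.39% to 13.5% in WT. It was named for that reason after its values were seen, and 1 of 13 is near the 5.22% of all promoters that ranked stronger in every S7KO library.

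Among the marker lists, Cyp17a1 (Leydig) had more covered length in every WT library, at 2266 to 3612 bp against 1983 to 2144 bp. Tagln (myoid) had more in every S7KO library, at 3371 to 3506 bp against 2658 to 3327 bp, while its promoter ranked weaker in every S7KO library. Gata4 (Sertoli) had a promoter that ranked stronger in every S7KO library, at 10.6% to 16.7% against 19.3% to 29.1%. By rank, the strongest promoters were those of Uchl1 (4.29%) and Tex101 (6.97%) for germ cells, Cldn11 (11.1%) and Sox9 (14.1%) for Sertoli cells, Star (2.499%) and Cyp11a1 (3.62%) for Leydig cells, Cnn1 (5.63%) and Acta2 (9.99%) for myoid cells, Cd68 (29.4%) and Csf1r (42.9%) for macrophages, and Tnp2 (5.34%) and Tnp1 (33.2%) for haploid spermatids. Over all genes, 0.508% had more covered length in every WT library and 6.35% in every S7KO library, and promoters ranked stronger in every S7KO library for 5.22% and weaker for 1.24%. Cyp17a1, Tagln and Gata4 were named after their values were seen, and no other gene of the marker lists separated by either measure.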
